A study of Mus musculus with 7 samples.

Results

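Phospholipase C (PLC) enzymes split the membrane lipid PIP2 into inositol trisphosphate (IP3), which opens calcium channels of the endoplasmic and sarcoplasmic reticulum, and diacylglycerol, which activates protein kinase C. The classes differ in what turns them on: PLC-β enzymes answer to receptors coupled to the G protein Gq, PLC-γ enzymes to tyrosine kinases, PLC-ε to small GTPases of the Ras family, and PLC-δ enzymes respond strongly to calcium itself. In skeletal muscle the calcium that drives contraction leaves the sarcoplasmic reticulum mainly through ryanodine receptors, and the IP3 route is a separate one. Here 10 PLC genes, of 31131 gene names on the array, were examined in quadriceps muscle: Plcb1, Plcb2, Plcb3, Plcb4, Plcd1, Plcd3, Plcd4, Plce1, Plcg1 and Plcg2. They were matched by gene name, or by the current symbol of the transcript, to 19 of the 39429 probes that were not controls. The set was chosen by the measured difference of Plcd4 between the genotypes on these same arrays, and the other 9 genes came with it by family name. The differences between genotypes at the member genes are therefore given as a description, without p-values.

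The arrays held RNA from quadriceps of C57BL/6 mice aged 3 months, with 4 samples labelled WT and 3 labelled AR113Q. AR113Q mice carry a humanized knock-in allele with an expanded CAG repeat at the endogenous locus, a model of spinobulbar muscular atrophy (SBMA), where the gene's own promoter drives it in every tissue that uses it. The study's text describes the control as a humanized allele with a shorter repeat, whereas the labels say wild type, and the arrays cannot tell these apart. Sex is not stated in the array labels, while the study's reporting summary says that its mice were male. Whole muscle was used, and fewer cells of a type and less RNA per cell cannot be told apart in it. The labels only number the samples, while the study's figure legends count them as mice, and the errors below measure the spread between them.

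Each array carried 43020 spots that were not controls, of which 94 to 151 were outliers and none was saturated. The 7 arrays lay on 5 slides, and both genotypes shared a slide only on slide 2, with WT replicate 2 beside AR113Q replicate 1. The muscle markers Ckm, Acta1, Myh4, Tnnt3, Des and Mb were well above background on all 7 arrays. None of these 6 was a DEG, while 3 of 6 fibroblast markers and 2 of 5 Schwann cell and nerve markers were lower DEGs, where 13.1% of all genes were lower and 11.2% higher. The 6 muscle markers ran from -0.80 (Ckm) to 0.41 (Des). Under 75th percentile scaling Ckm was at -1.26, Acta1 at -1.22 and Des at 0.39. Of the fiber type markers, 1 of 10 fast and 0 of 9 slow genes were lower and 0 and 1 were higher, and 0 of 3 erythrocyte genes passed. These counts read each gene by its brightest kept probe. The fast genes ran from -1.37 to 0.31 with a median of -0.24, and Pvalb (-0.13) was a lower DEG at its other probe (-1.12). Slow fiber signal stood apart on WT replicates 2 and 3 and AR113Q replicate 3: Myh7, the slow myosin heavy chain, was at 12.56, 11.89 and 13.59 (log2) there and between 4.95 and 6.66 on the other 4 arrays. The summed slow fiber signal ranged from 6159 to 36990 in WT and from 6414 to 89164 in AR113Q. Leaving out any 1 of these 3 arrays gave differences from -4.66 to -4.31 at the Plcd4 probes and from -1.63 to -1.47 at Plcg2. Each such fit keeps the others, and the part of fiber content in these differences was not tested.

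Plcd4 encodes PLC-δ4, an enzyme known for its role in the acrosome reaction of sperm. It was read by 2 probes of the transcript NM_148937. The probe A_52_P327588 starts at base 2591 of the transcript and has 1 reading frame without a stop codon. Its sequence is shown because it is a stretch of the transcript by which Plcd4 was read:
Plcd4 A_52_P327588: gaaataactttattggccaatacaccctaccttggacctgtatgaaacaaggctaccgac
The probe A_55_P2090359 starts at base 2865 and lies at chr1:74612436-74612495 on the plus strand (mm9, the array's annotation). RefSeq (GRCm38.p6) lists 2 starts of Plcd4. The 250 bases before the upstream one, at chr1:74542639-74542888 on the plus strand, are shown as the stretch in front of the gene with the largest difference of the family, with matches to the E-box letters CANNTG in capitals:
Plcd4 upstream: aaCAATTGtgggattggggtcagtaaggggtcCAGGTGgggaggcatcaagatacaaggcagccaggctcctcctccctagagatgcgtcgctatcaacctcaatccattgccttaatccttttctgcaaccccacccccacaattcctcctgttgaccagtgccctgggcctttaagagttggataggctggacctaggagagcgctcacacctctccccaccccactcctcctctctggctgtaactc
The E-box pattern CANNTG, which as a pattern reads alike on both strands, is a site of basic helix-loop-helix factors, the myogenic ones among them. It was found 2 times here, and 66.2% of the 32851 windows of this length before RefSeq starts held at least 1 match. Of the 13 windows before the starts of the 10 member genes, 9 held a match. These letters say nothing on whether a factor binds.

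At Plcd4 the brighter probe, A_55_P2090359, gave normalized log2 signals of 12.83, 12.56, 13.12 and 12.90 in WT and 7.52, 8.87 and 8.97 in AR113Q. All 4 WT arrays were high, all 3 AR113Q arrays were low, and AR113Q replicate 1 was the lowest. The means were 12.85 ± 0.23 (SD, n = 4) and 8.45 ± 0.81 (SD, n = 3), a log2 difference of -4.40 ± 0.35 (SE), or 21.1-fold lower in AR113Q. The second probe, A_52_P327588, gave 12.19, 11.55, 12.03 and 12.13 in WT and 6.73, 8.14 and 7.90 in AR113Q. The order of the genotypes was the same, with AR113Q replicate 1 again the lowest, and the difference was -4.38 ± 0.34 (20.9-fold lower). The summed linear signal of the 6 skeletal muscle markers ranged from 604925 to 699451 in WT and from 417152 to 678863 in AR113Q, and the part of cell makeup in the Plcd4 difference was not tested. Both probes remained well above background on all 7 arrays, so that Plcd4 signal was still measurable in AR113Q muscle. On slide 2 alone, the AR113Q array lay below the WT array by 5.03 log2 units at the first probe (-5.03) and by 4.82 at the second (-4.82).

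**Figure D1:**
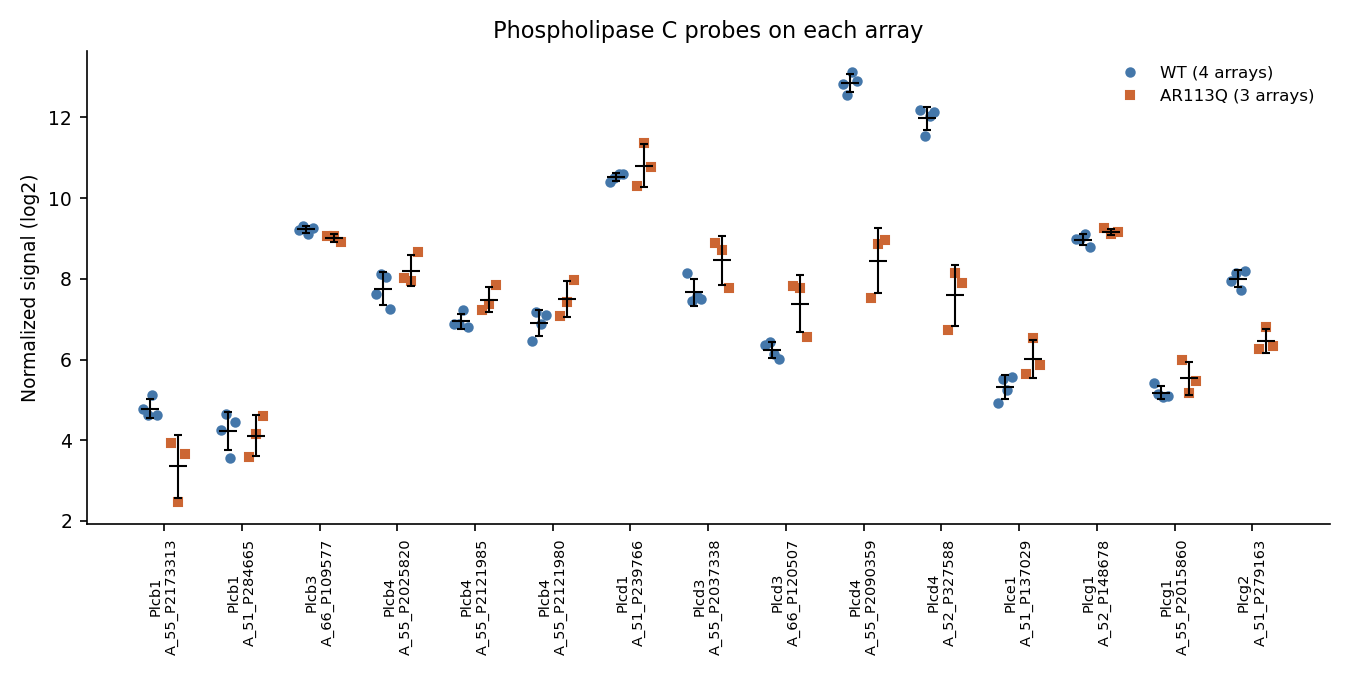
Normalized log2 signal (y axis) of the 15 PLC probes that passed the detection filter (x axis) on each array; blue circles are the 4 WT arrays, orange squares the 3 AR113Q arrays, and black marks the mean ± SD. The Plcd4 probes lie between 11.55 and 13.12 in WT and between 6.73 and 8.97 in AR113Q, while most other probes overlap or nearly do.

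Probes detected above the local background on 3 or more of the 7 arrays entered the fit. This kept 15 of the 19 member probes, covering 9 of the 10 genes, and 13 of the 15 were detected on every array. Differentially expressed genes (DEGs) had to reach a limit of 0.05 on the adjusted p and differ by 1 or more on the log2 scale in either direction. By these limits 5 of the 15 member probes differed, 4 lower and 1 higher in AR113Q, where 24.8% of all 20987 kept probes did. The same 5 probes passed on the adjusted p alone, which 43.8% of all kept probes did. The 2 genotypes did not overlap at 8 of the 15 probes, as at 49.6% of all kept probes. With each gene read by its brightest probe, 2 of 9 members were lower (Plcd4 and Plcg2) and 0 were higher, where 13.1% of all 16574 genes were lower and 11.2% were higher. The median log2 fold change was 0.19 over the 9 genes and -0.01 over all genes tested. Since the set was proposed on this contrast, nothing is read from these counts.

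**Figure D2:**
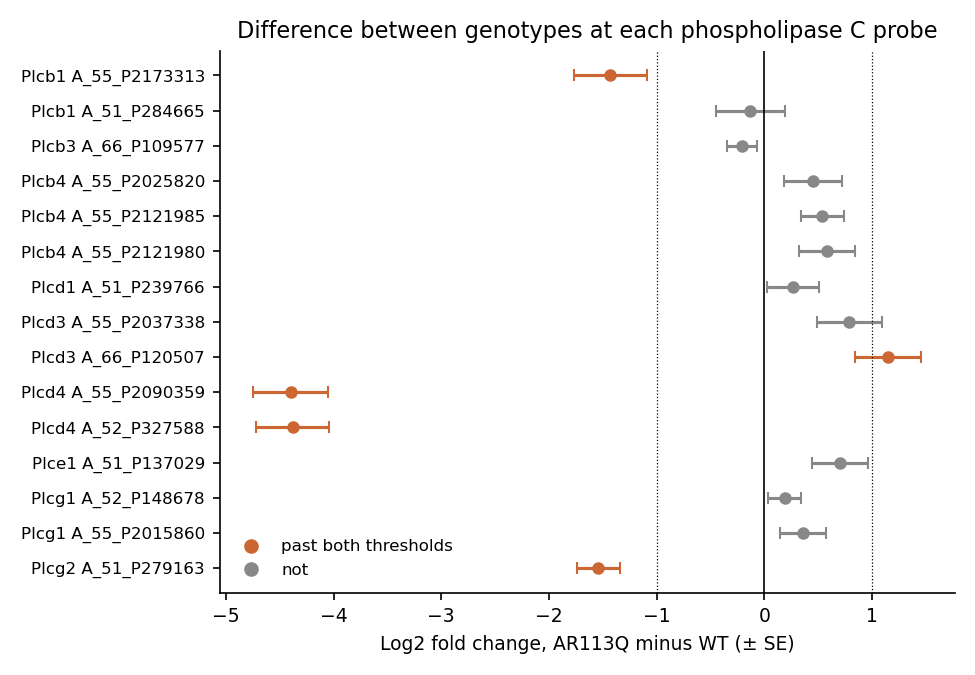
Log2 fold change of AR113Q minus WT (x axis, ± SE) at each of the 15 PLC probes (y axis); orange points passed both limits and dotted lines mark a log2 fold change of 1 in either direction. Both Plcd4 probes lie near -4.4, Plcg2 is at -1.54, and the probes of Plcb3, Plcb4, Plcd1, Plce1 and Plcg1 lie between -0.21 and 0.70.

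At the other PLC-δ genes, Plcd1 and Plcd3, the fitted differences were above 0. Plcd1 encodes PLC-δ1, whose PH domain binds PIP2 and is widely used as a sensor for it. Its probe gave 10.41, 10.50, 10.59 and 10.61 in WT and 10.29, 11.36 and 10.76 in AR113Q. The WT arrays lay close together, the AR113Q arrays lay on both sides of them, and the difference was 0.27 ± 0.24 with a 95% interval from -0.28 to 0.83. Without AR113Q replicate 2 it was -0.00351. Plcd3 encodes PLC-δ3 and was read by 2 probes that start 2945 and 2952 bases into NM_152813 and so share most of their letters. The probe A_66_P120507 gave 6.35, 6.44, 6.14 and 6.02 in WT and 7.82, 7.77 and 6.57 in AR113Q. AR113Q replicates 1 and 2 were high and replicate 3 was just above WT, and the difference of 1.15 ± 0.31 passed both limits. The brighter probe, A_55_P2037338, gave 8.15, 7.45, 7.57 and 7.49 in WT and 8.89, 8.72 and 7.77 in AR113Q. Here WT replicate 1 lay above AR113Q replicate 3, and the difference of 0.79 ± 0.30 (95% interval 0.10 to 1.49) did not pass. The calls rested on single arrays: the first probe no longer passed without AR113Q replicate 1 (0.93) or replicate 2 (0.96), and the second passed without AR113Q replicate 3 (1.14).

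Of the enzymes activated by tyrosine kinases, Plcg2 passed the limits and Plcg1 did not. Plcg2 encodes PLC-γ2, which is best known in B cells, platelets and myeloid cells. Its probe, at chr8:120158980-120159037 (mm9), gave 7.95, 8.15, 7.73 and 8.19 in WT and 6.25, 6.81 and 6.33 in AR113Q. The groups did not overlap and lay 0.92 log2 units apart at their nearest arrays. The difference was -1.54 ± 0.20, or 2.91-fold lower in AR113Q, and on slide 2 alone it was -1.90. It was under the fold limit when background was corrected by normexp (-0.89) or not subtracted (-0.96). Of the 11 leukocyte markers looked up, 9 were kept: 4 were lower DEGs (Csf1r, Adgre1, Lyz2 and Coro1a) and none was higher, where 13.1% of all genes were lower. The 5 that did not pass were Ptprc (-0.86), Cd68 (-0.11), Laptm5 (-0.03), Cd3e (0.09) and Itgam (0.23). Under normexp the 4 differed by -1.16 (Csf1r), -1.0 (Adgre1), -0.95 (Lyz2) and -0.91 (Coro1a), and in the authors' values by -1.14, -0.73, -0.85 and -0.78 in the same order, where Csf1r alone reached the fold limit. The summed linear signal of the 9 markers ranged from 7046 to 11641 in WT and from 4923 to 5896 in AR113Q, and the B cell markers Cd79a and Ms4a1 did not pass the filter. The part of these cells in the Plcg2 difference was not tested.

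Plcg1 encodes PLC-γ1, the widely expressed isoform. The brighter of its 2 kept probes, A_52_P148678, gave 9.0, 9.0, 9.11 and 8.79 in WT and 9.25, 9.10 and 9.16 in AR113Q. The groups overlapped narrowly, and the difference was 0.19 ± 0.15 with a 95% interval from -0.14 to 0.53. The probe A_55_P2015860 ranged from 5.08 to 5.41 in WT and from 5.17 to 5.98 in AR113Q, a difference of 0.36 ± 0.21. A further Plcg1 probe was well above background on 0 WT arrays and 1 AR113Q array and did not enter the fit.

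The PLC-β enzymes, which act downstream of Gq, showed small differences at their well measured probes. Plcb3 gave 9.21, 9.31, 9.12 and 9.26 in WT and 9.07, 9.06 and 8.91 in AR113Q. The groups were separate by a narrow gap, and the difference was -0.21 ± 0.14 with a 95% interval from -0.53 to 0.11. Plcb4, known from the retina and cerebellum, was read by 3 kept probes. The probe A_55_P2121985 gave 6.87, 6.88, 7.23 and 6.80 in WT and 7.24, 7.38 and 7.84 in AR113Q, a difference of 0.54 ± 0.20. The probe A_55_P2121980 differed by 0.58 ± 0.26, and A_55_P2025820, designed on the clone AK036896, by 0.45 ± 0.27. At both of these the genotypes overlapped, and no Plcb4 probe passed the limits. On slide 2 alone the differences of these last 2 probes were -0.09 and -0.10.

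Plcb1 was near the limit of detection. The probe A_55_P2173313 was well above background on 3 WT arrays and on no AR113Q array, so that it passed the filter through WT alone. It gave 4.78, 4.62, 5.12 and 4.62 in WT and 3.93, 2.46 and 3.66 in AR113Q. With the normalization used here, this puts Plcb1 at least 2.14-fold lower in AR113Q over all arrays at this probe. Without AR113Q replicate 2 the fitted difference at this probe, -0.98, was smaller than that bound and under the fold limit, and nothing is read from the call. The bound sets the WT mean against a mean over the AR113Q arrays, where each array gives the probe's own signal or the lowest signal well above background on that array, whichever is higher. It is no minimum under other background steps: the difference was -0.17 under normexp and -0.08 in the authors' values. The probe A_51_P284665, well above background on 1 WT and 2 AR113Q arrays, ranged from 3.57 to 4.66 in WT and from 3.58 to 4.60 in AR113Q. The groups overlapped there almost wholly, with a difference of -0.13 ± 0.32. A further Plcb1 probe and both probes of Plcb2, the isoform of blood cells, were well above background on no array. Plcb2 is therefore given no fold change.

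Plce1 encodes PLC-ε, which also carries a domain that activates Ras-family GTPases. It gave 4.92, 5.52, 5.24 and 5.56 in WT and 5.65, 6.53 and 5.86 in AR113Q. The AR113Q arrays all lay above WT, by a margin of 0.09 at the nearest pair, and the difference was 0.70 ± 0.26 with a 95% interval from 0.11 to 1.29. It did not pass the limits. Over the other settings the difference ran from 0.13 to 0.96. It was 0.44 without AR113Q replicate 2, 0.27 under normexp and 0.15 in the authors' values.

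Probes of a gene can read different transcripts, so the log2 ratio of 2 probes within an array was compared between genotypes, a measure on which the set was not chosen. There were 7 pairs of kept probes in 5 genes, tested by an exact two-sided permutation test over the 35 splits of the arrays, whose smallest p is 0.0286. After adjustment over the 7 pairs a single pair at that smallest p would reach 0.20, and 4 pairs would have to reach it together to pass, so the test could not call 1 pair alone. None passed. For the Plcd4 pair the ratio ranged from 0.63 to 1.09 in WT and from 0.73 to 1.06 in AR113Q, and its difference between genotypes was -0.02 (exact p = 0.914, adjusted p = 0.914). This depended on the background step: the difference of the Plcd4 pair was -0.31 under normexp (exact p = 0.0857, adjusted p = 0.60) and -0.29 with no background subtraction (exact p = 0.114, adjusted p = 0.80), where the pairs of Plcb4, Plcd3 and Plcg1 lay between -0.10 and 0.09. The Plcb1 pair is given no value, since 1 of its probes was well above background on no AR113Q array. The Plcd3 pair differed by -0.36 (exact p = 0.143, adjusted p = 0.50). The other 4 pairs, of Plcb4 and Plcg1, differed by -0.16 to -0.04 (exact p from 0.514 to 0.857).

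The 5 genes whose profile over the 7 arrays lay closest to the brighter Plcd4 probe were Tmem233, Col3a1, Igfbp5, Camk2a and Smtnl2, among 13975 probes that were well above background on every array and whose accession had a current RefSeq symbol. Closeness was the root mean square difference of mean-centred log2 values, which was 0.27 for Tmem233 and Col3a1, 0.29 for Igfbp5, 0.33 for Camk2a and 0.36 for Smtnl2. The second Plcd4 probe stood at 0.17. Col3a1 encodes a fibrillar collagen, Igfbp5 a binding protein of insulin-like growth factors, and Camk2a a kinase activated by calcium and calmodulin. Their log2 differences ranged from -3.97 (Camk2a) to -4.62 (Col3a1), and in all 5 AR113Q replicate 1 was the lowest array. The 7 arrays include both genotypes, so the measure chiefly compares the size of the genotype difference.

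**Figure D3:**
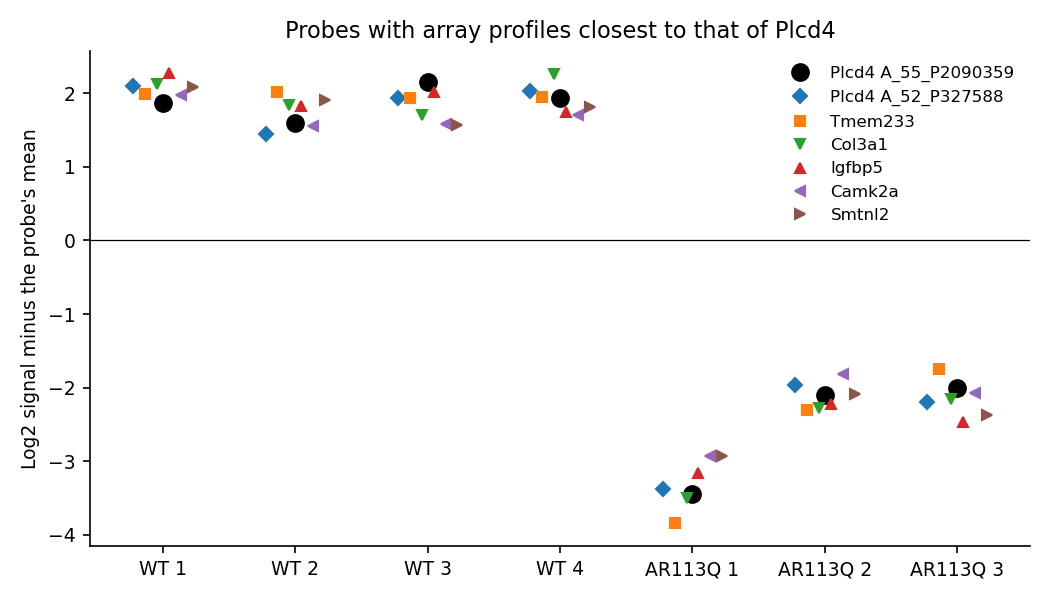
Log2 signal minus the probe's own mean over the 7 arrays (y axis) for both Plcd4 probes and the 5 genes with the closest profiles, on each WT and AR113Q array (x axis). WT values lie between 1.45 and 2.27, AR113Q replicate 1 between -3.84 and -2.93, and AR113Q replicates 2 and 3 between -2.47 and -1.75.

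Genes that act with PLC were taken from 8 lists set by role, holding 93 genes. Of these, 70 had a kept probe, 12 were higher and 13 lower in AR113Q, and 45 did not pass. These are 25 DEGs of 70, where 24.3% of all genes tested were DEGs. Their median log2 fold change was -0.06. For 3 of the 25 DEGs (Hrh1, Ptgfr and Gna14) no AR113Q array was well above background, and for Tbxa2r 1 was. The counts and the median include these genes, whose calls are no support. All adjusted p-values below are from the limma fit over all kept probes.

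**Figure D4:**
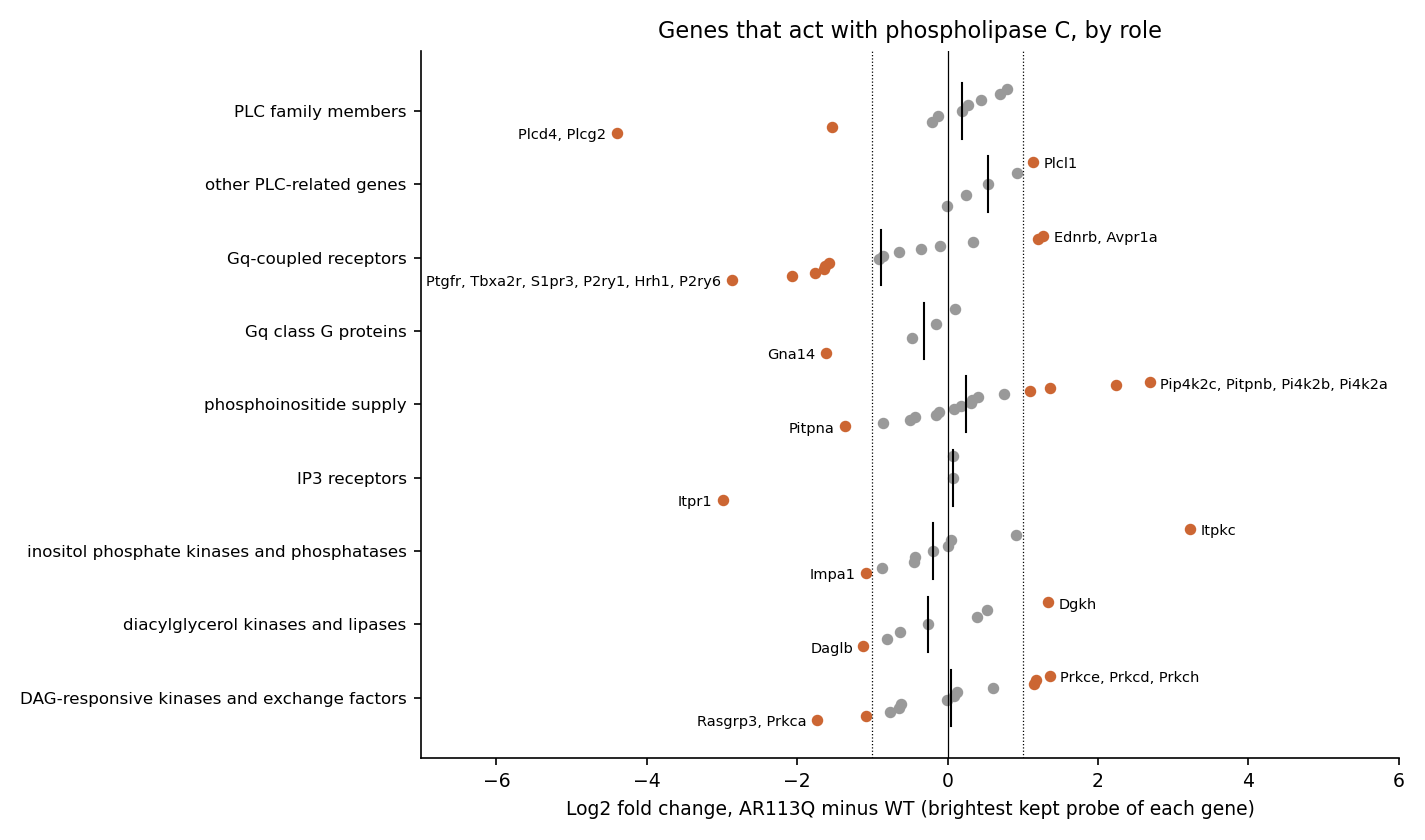
Log2 fold change of AR113Q minus WT (x axis) of each measured gene by its brightest kept probe, in the PLC family and in 8 lists by role (y axis); orange points are named DEGs, grey points did not pass, vertical bars are list medians and dotted lines mark a log2 fold change of 1. The Gq-coupled receptors have a median of -0.88 here and -0.35 under normexp correction, and the medians of the other lists run from -0.32 to 0.54.

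Of 24 Gq-coupled receptors, 14 were measured, 6 were lower and 2 higher, where 13.1% of all genes were lower and 11.2% higher. Their median was -0.88, but -0.35 under normexp and -0.26 over the 13 found in the authors' values. The 6 lower receptors and the median include Ptgfr, Tbxa2r and Hrh1, which passed the filter through WT alone, so nothing is read from either. Under normexp 2 of the 8 receptor DEGs, P2ry1 (-1.11) and S1pr3 (-1.10), still reached the fold limit, and in the authors' values none of the 7 that were matched there did. Ptgfr, the receptor for prostaglandin F2α, gave 4.56, 5.92, 5.80 and 5.31 in WT and 3.29, 2.58 and 1.71 in AR113Q. With the normalization used here the bound was at least 3.43-fold lower in AR113Q, and it is no minimum under other background steps. The probe passed the filter through WT alone, so its call is no support. The difference was -0.49 under normexp and -0.25 in the authors' values. Tbxa2r, the thromboxane receptor of platelets and vessel walls, gave 5.94, 5.67, 5.94 and 5.55 in WT and 3.83, 4.57 and 2.71 in AR113Q. Of the 3 AR113Q arrays 1 was well above background, so the WT arrays alone carried this probe through the filter too and its call is no support. The difference was -0.57 under normexp and -0.31 in the authors' values. S1pr3, P2ry1, Hrh1 and P2ry6 were the other lower receptors. Hrh1 also passed through WT alone. Its bound was at least 1.84-fold lower here, which the difference of -0.18 under normexp did not reach. Avpr1a, the vasopressin receptor, rose by 1.27 ± 0.29 (adjusted p = 0.00835), and Ednrb, the endothelin B receptor, rose by 1.20 ± 0.30 (adjusted p = 0.0123). They were under the fold limit with normexp (0.30 and 0.89) and in the authors' values (0.16 and 0.77). Of the vessel markers, 1 of 7 endothelial genes, Vwf, was a lower DEG and none was higher, and 0 of 6 smooth muscle and pericyte genes passed. The summed endothelial signal ranged from 5825 to 7245 in WT and from 3787 to 5658 in AR113Q, and that of the smooth muscle genes from 13522 to 15125 and from 8091 to 13442. The part of vessel cells in the receptor differences was not tested.

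Of the 4 α subunits of the Gq class, Gna14 passed. It gave 4.65, 5.21, 4.51 and 4.74 in WT and 3.17, 2.94 and 3.35 in AR113Q, with no AR113Q array well above background. This probe passed the filter through WT alone, so its call is no support. With the normalization used here the bound is at least 2.23-fold lower in AR113Q, and it is no minimum under other background steps. The difference was -0.33 under normexp and -0.17 in the authors' values. Gnaq and Gna11, the widely expressed subunits, differed by -0.48 ± 0.19 and 0.10 ± 0.17 and did not pass.

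The lipid that PLC cleaves is made from phosphatidylinositol by transfer proteins and kinases. Of 18 such genes 16 were measured, with 4 higher and 1 lower, where 11.2% of all genes were higher and 13.1% lower. Pi4k2a, a phosphatidylinositol 4-kinase, gave 8.61, 8.73, 8.34 and 8.81 in WT and 11.70, 11.10 and 11.14 in AR113Q. The groups were wide apart, and the probe rose by 2.69 ± 0.21 (6.45-fold, adjusted p = 0.000109). A second Pi4k2a probe rose by less, 1.41, and also passed. Pi4k2b, the related kinase, rose by 2.24 ± 0.24 (adjusted p = 0.000384), but by 0.89 under normexp and 0.58 in the authors' values, both under the fold limit. Pitpna, a phosphatidylinositol transfer protein, fell by 1.37 ± 0.22 (adjusted p = 0.00188), while its relative Pitpnb rose by 1.36 ± 0.22 (adjusted p = 0.00191; 0.97 under normexp and 0.88 in the authors' values).

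On the IP3 arm, Itpr1 encodes an IP3 receptor, the channel that IP3 opens. It gave 11.80, 11.44, 11.60 and 11.27 in WT and 8.29, 8.64 and 8.67 in AR113Q. All AR113Q arrays were far below WT, and Itpr1 fell by 2.99 ± 0.19 (7.97-fold, adjusted p = 6.02e-05). Itpr2 and Itpr3 differed by 0.07 ± 0.19 each and did not pass. Of the 9 kinases and phosphatases that process inositol phosphates, 1 was higher and 1 lower, where 11.2% of all genes were higher and 13.1% lower. Itpkc, which phosphorylates IP3, gave 7.35, 7.59, 7.25 and 7.62 in WT and 11.92, 10.19 and 9.94 in AR113Q. It rose by 3.23 ± 0.43 (9.38-fold, adjusted p = 0.000887), with AR113Q replicate 1 the highest. Impa1, an inositol monophosphatase, fell by 1.09 ± 0.17 (adjusted p = 0.00153), with -0.84 under normexp and -0.76 in the authors' values.

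On the diacylglycerol arm, 7 of 12 kinases and lipases were measured. Dgkh, a diacylglycerol kinase, rose by 1.34 ± 0.18 (adjusted p = 0.000819), and Daglb, a diacylglycerol lipase, fell by 1.12 ± 0.16 (adjusted p = 0.00122). Both were under the fold limit with normexp (0.86 and -0.94) and in the authors' values (0.70 and -0.85). Of 14 kinases and exchange factors that respond to diacylglycerol, 12 were measured, 3 were higher and 2 lower. The shares over all genes were 11.2% higher and 13.1% lower. Prkch and Prkcd, which encode protein kinase C isoforms, rose by 1.36 ± 0.25 (adjusted p = 0.00312) and 1.18 ± 0.34 (adjusted p = 0.0229). Rasgrp3, an exchange factor for Ras, fell by 1.74 ± 0.30 (adjusted p = 0.00252). Rasgrp3 and Prkch were under the fold limit with normexp (-0.79 and 0.62) and in the authors' values (-0.54 and 0.42). Prkca fell by 1.09 ± 0.37 (adjusted p = 0.0428) at its brightest probe and differed by -0.10 at its other one. Of the 9 further PLC-related genes 5 were measured, and Plcl1, a relative without lipase activity, rose by 1.14 ± 0.28 (adjusted p = 0.0121) at 1 probe and differed by 0.48 at the other, which did not pass. The first probe gave 0.52 under normexp and 0.35 in the authors' values, both under the fold limit.

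The size of several of these differences moved with the background correction. Under normexp correction the differences were -3.91 and -3.61 at the Plcd4 probes, -0.89 at Plcg2, 0.64 at Plcd3 (A_66_P120507) and -0.17 at Plcb1 (A_55_P2173313). In the authors' own normalized values they were -3.80 and -3.42 at Plcd4, -0.68 at Plcg2 and -0.08 at Plcb1. The Plcd3 probe has no value among the authors' values. The direction at these probes was the same in these settings wherever a value was given. Of the 25 DEGs on the pathway lists, 23 were in the authors' table. All 23 had the same sign there, 20 passed on the adjusted p, and 7 also reached a log2 fold change of 1 (Pitpna, Pi4k2a, Pip4k2c, Itpr1, Itpkc, Prkca and Prkcd).

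**Figure D5:**
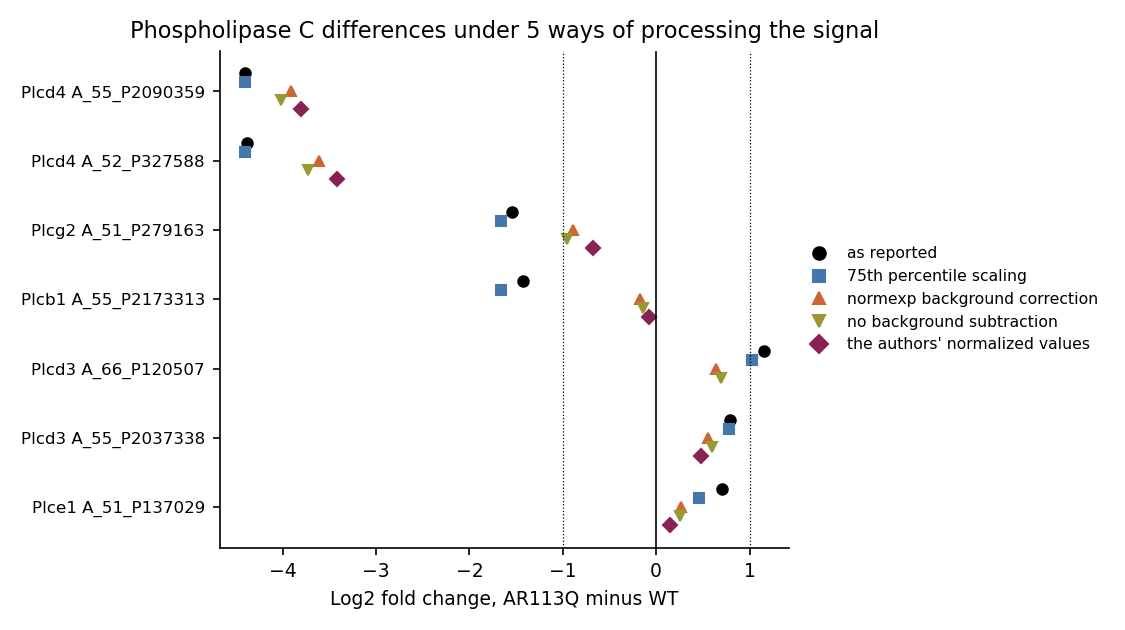
Log2 fold change of AR113Q minus WT (x axis) at 7 PLC probes (y axis) under 5 ways of processing the signal; dotted lines mark a log2 fold change of 1 in either direction. The Plcd4 probes stay between -4.40 and -3.42, while Plcg2 runs from -1.66 to -0.68 and the dim Plcb1 probe from -1.66 to -0.08. Plcd3 A_66_P120507 has no point for the authors' values.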

How the data were processed

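Quadriceps RNA of 4 WT and 3 AR113Q mice was labelled with Cy3 and hybridised singly to Agilent 4x44K v2 mouse arrays. The deposited intensities were made by the authors with Agilent Feature Extraction 10.7.3.1, per the file headers: background was subtracted and trends were removed within each array. The authors also deposited log2 values after quantile normalization, whose background step and filter are not given in the sources used here; these served as an alternative. A depth does not apply to arrays, and their number limits the precision.

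Outlier spots were left out, spots of a probe were averaged, and log2 processed signal was quantile normalized. A probe entered when Feature Extraction called it above background on 3 or more arrays. Genotypes were compared with limma 3.58.1 (R 4.3.3; lmFit and eBayes, moderated over all kept probes, Benjamini-Hochberg adjusted), checked on simulated data first. Of the probes, 28330 took the current symbol of their accession from RefSeq (GRCm38.p6, names only) and the rest kept the array's name. Lists read 1 probe a gene, the brightest kept.

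Every member was described at each of its probes. Named besides were the 2 DEGs with the largest rise and fall of each pathway list, DEGs of the IP3 receptor and Gq class lists, the 5 profiles closest to Plcd4, and cell type markers. A further 2 genes that were to be named, none on the pathway lists, are not reported here. Other list genes named in the text or plots, such as Pitpnb, S1pr3, P2ry1, Hrh1 and P2ry6, were chosen after their values were seen. Members and lists were chosen with earlier results of these data known. Alternatives varied scaling, background, filter, probe summary, outlier spots, variance model, slide, replicate number, threshold and each replicate's inclusion.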

Additional observations from a re-analysis of the deposited data

How the results depend on the processing

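Over the 15 member probes, 299 differences were recomputed under the alternatives: 276 kept their direction and their side of the limits, 16 no longer passed, 1 came to pass and 6 turned direction. Both Plcd4 probes stayed between -5.03 and -3.42. The number of family genes lower in AR113Q, 2 in the report, was 1 with normexp correction, 1 with no background subtraction and 1 in the authors' values, in each case because Plcg2 fell short of the fold limit. Pathway genes, 12 higher and 13 lower in the report, became 4 and 5 with normexp, 5 and 5 with no background subtraction, and 4 and 3 in the authors' values, while 15 were higher and 22 lower with no fold limit. Over all probes, 2554 higher and 2653 lower became 975 and 1100 with normexp and 735 and 857 in the authors' values. With slide as a fixed effect the genotype difference is that of slide 2 alone and 1 residual degree of freedom is left, and 0 family genes were lower and 0 pathway genes were higher or lower, as were 0 of all 20987 probes. Under it Plcb4 turned to -0.10 (A_55_P2025820) and -0.09 (A_55_P2121980), and Plcd1 to -0.21.

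Leaving out each replicate in turn gave 0 to 1 family genes higher, the 1 being Plcd3 without AR113Q replicate 3. Values ran from -0.37 to 0.14 at Plcb1 (A_51_P284665), which turned direction without WT replicate 2 or AR113Q replicate 1, and from -0.00351 to 0.53 at Plcd1. Same-numbered samples of the genotypes showed no sign of deviating together (r of 0.0405, -0.0160 and 0.156). These few correlations cannot exclude that the numbers pair them. With the replicate block, 2 family genes were lower and 0 higher, and 11 pathway genes were higher and 12 lower. No pair of probes within a gene passed, which without a replicate was fixed by the smallest exact p of 0.1 (a WT array left out) or 0.0667 (an AR113Q array left out). Signal near background limits Plcb1, Plcb2, Hrh1, Ptgfr and Gna14.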
